A study of Danio rerio with 24 samples.

Results

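The change in gene expression between 6 and 4 days post fertilization (dpf) was measured in GFP- cells of zebrafish larvae. The members were chosen by label alone: the 3 arrays of GFP- cells at 6 dpf were set against the 3 arrays of GFP- cells at 4 dpf, so that 6 of the 24 arrays of the series and all 15502 probe sets that are no array control entered the comparison. The embryos were homozygous for the transgene Tg(XlEef1a1:GFP)s854, in which GFP driven by sequence of the frog Eef1a1 gene lights up the digestive organs. All were kept in embryo medium with 1-phenyl-2-thiourea (PTU), which blocks pigment. At 2, 3, 4 and 6 dpf they were dissociated with trypsin, proteinase K and collagenase and sorted by fluorescence into GFP+ and GFP- cells. Amplified, biotin-labelled cDNA of each sort was hybridized to an Affymetrix zebrafish array, with 3 arrays for each of the 8 combinations of gate and age. All groups therefore share the transgene, the PTU and the dissociation, and GFP- cells are whatever did not pass the GFP gate rather than a purified tissue. The sources used here do not say how many embryos went into a sample or whether replicates came from separate clutches, so that p-values may measure only the spread between these samples.

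Between these ages a zebrafish larva uses up its yolk and turns to outside food. The acinar cells of the exocrine pancreas make digestive enzymes as inactive precursors (zymogens), store them in granules and release them into the gut. In the rest of the body, fibroblasts lay down collagen and proteoglycans in the fins and skin. Endocrine cells of the pituitary and pancreas release hormones, and mitochondria of all tissues make ATP through the respiratory chain.

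Expression is given as a score per probe set, with every array centred on a median of 0 and scaled to a spread of 1 SD (standard deviation). A difference of 1 is therefore 1 array SD, a score below 0 lies below the array's middle, and no fold change can be read from it because the log base is not given in the sources used here. Arrays correlated with each other between 0.973 and 0.98 within GFP- cells at 6 dpf, between 0.92 and 0.949 within GFP- cells at 4 dpf, and between 0.933 and 0.965 across these ages. One control probe set that the array annotation here does not name, singled out after its values were seen, scored 1.44 to 2.20 on the 12 GFP+ arrays and -0.68 to -0.48 on 11 GFP- arrays, but 0.37 on the third GFP- array at 4 dpf. The score of the 3′ probe set for gapdh minus that of the 5′ probe set, a measure of RNA integrity, was 0.848, 0.242 and 0.35 at 6 dpf, against 0.451, 0.409 and 0.202 at 4 dpf.

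The GFP- cells carried markers of many tissues. Photoreceptor markers had a median score of 3.40, 2.92 and 3.13 at 6 dpf, against 3.57, 3.01 and 3.11 at 4 dpf. Epidermal markers had 1.83, 2.15 and 2.31 at 6 dpf, against 1.63, 1.52 and 1.64 at 4 dpf. The longer list of 58 epidermal genes did not rise with them. Its array medians were 1.01, 1.23 and 1.17 at 6 dpf, against 1.11, 1.58 and 1.16 at 4 dpf. Of its differences 39 were negative and 19 positive (median -0.08). Neuronal markers had 1.08, 1.11 and 1.08 at 6 dpf, against 1.34, 0.35 and 0.90 at 4 dpf. The medians of the 2 measured lens markers and of the 2 measured endothelial markers were below 0 at both ages. Digestive markers were high as well: 5 liver markers had a median of 2.74, 3.03 and 3.28 at 6 dpf, against 3.13, 2.61 and 3.54 at 4 dpf, and 7 exocrine pancreas markers 3.66, 3.57 and 3.70, against 2.83, 0.89 and 3.27. The arrays therefore do not show a population free of digestive transcripts, and the cells are called GFP- cells here rather than non-digestive cells. In sorted bulk samples a change in the share of a cell type and a change in its RNA per cell cannot be told apart.

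Few probe sets passed the test between the ages in GFP- cells, and more of these were higher than lower. That count does not show that the rest stayed the same. Of 15502 probe sets, 77 passed an adjusted p of 0.05 (0.497%), 56 of them higher at 6 dpf (0.361%) and 21 lower (0.135%). On all 77 the 3 arrays at 6 dpf did not overlap the 3 at 4 dpf. Of all genes, 6.94% were higher and 7.76% lower at 6 dpf without overlap. The 77 were picked by a test on the same arrays, so their lack of overlap is no separate support. The largest increases were in genes for pancreatic digestive enzymes: of the 12 probe sets higher by at least 1 array SD, 6 belonged to the exocrine pancreas list, and the others were ucp1, cuzd1.1, 1 clone symbol and 3 probe sets without a gene symbol. The probe set without a symbol that was higher by 1.84 shares the stem of its name with that of cel.1, an exocrine gene. None of the 21 fell by as much as 1 array SD, and the largest decrease was that of vcanb, which encodes the matrix proteoglycan versican (-0.98). At an unadjusted p of 0.05, 1475 probe sets differed (9.51%).

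Counted by gene, with the brightest probe set of each of 8793 genes, 52 passed (0.591%), 32 higher (0.364%) and 20 lower (0.227%). At an unadjusted p of 0.05, 883 genes differed (10.0%), and the median difference of all genes was -0.017 array SD. Of 37 gene lists, 8 held at least 1 gene past the threshold. With a block by gate and replicate number on all 24 arrays, added after seeing the data, 44 probe sets passed (34 higher and 10 lower). With a block by replicate number on the 12 GFP- arrays, 7 passed (6 and 1), against 12 there with no block. Both blocks treat the GFP- arrays alike, and the fit on 24 arrays also takes its spread from the GFP+ arrays. Of the 15 genes with the largest increases and the 15 with the largest decreases, 15 kept their call with the block on 24 arrays, and vcanb alone of these 30 with the block on 12. Without the first 6 dpf array 12 passed, without the second 47 and without the third 23, whereas without the first 4 dpf array 117 passed. Without the third 4 dpf array, the one with the high control score, 72 passed, 65 higher and 7 lower.

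**Figure D1:**
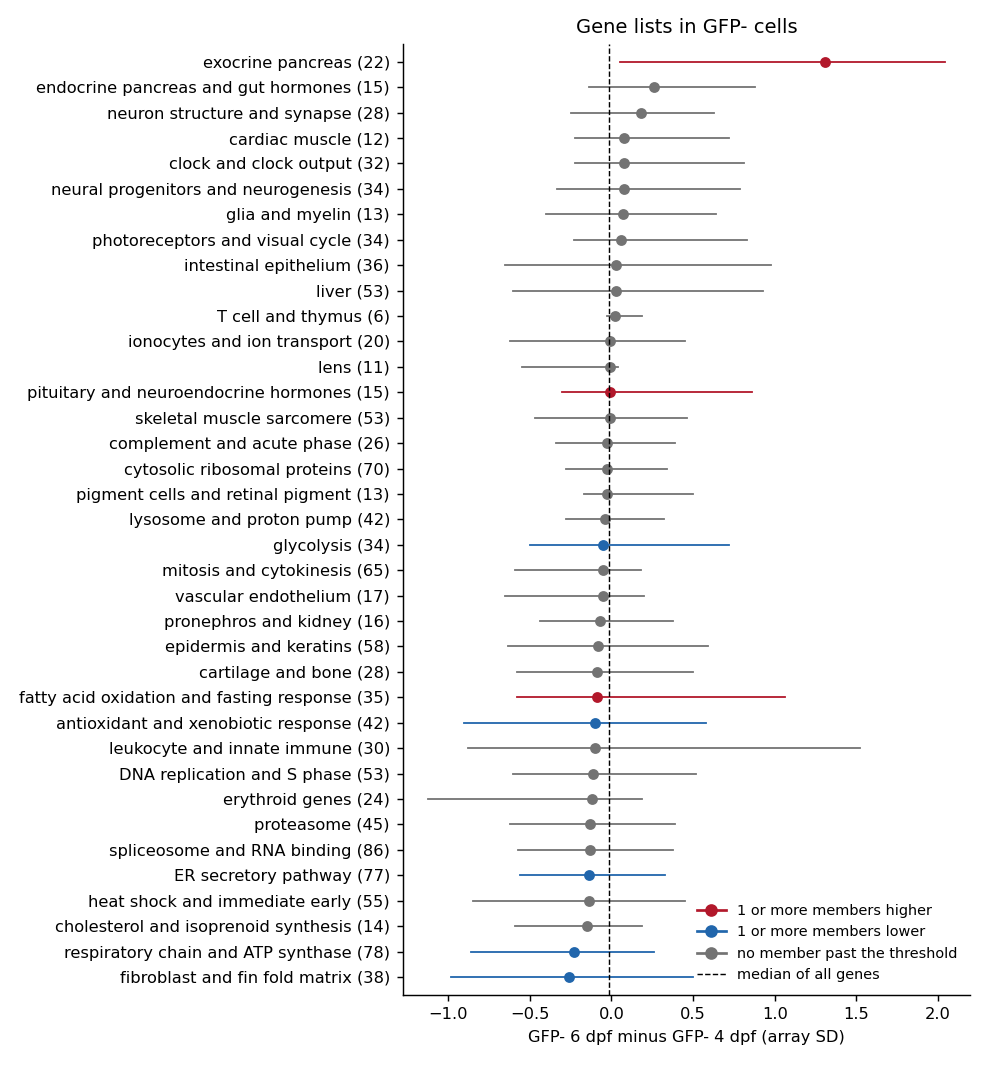
Difference in score between GFP- 6 dpf and GFP- 4 dpf (array SD) for 37 gene lists, with the number of measured genes in brackets; the dot is the median of a list and the line runs between its lowest and highest member. The exocrine pancreas list stands to the right with a median of 1.31, and the matrix and respiratory chain lists lie farthest to the left with medians of -0.26 and -0.23.

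Pancreatic digestive enzymes gave 6 of the 12 called increases of at least 1 array SD. Of 22 measured exocrine pancreas genes, 6 were called higher at 6 dpf and none lower, against 0.364% of all genes called higher. All 22 differences were positive, against 44.5% of all genes, and their median was 1.31 array SD, against -0.017 for all genes. On 16 of the 22 (72.7%) the arrays of the ages did not overlap, against 6.94% of all genes that did so in this direction. The list was chosen with earlier results of these data known.

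Carbohydrate and fat digestion was represented by amylase and carboxyl ester lipase. amy2a, which encodes the starch-splitting alpha-amylase, scored 2.81, 2.71 and 3.22 at 6 dpf, against 1.17, -0.50 and 1.95 at 4 dpf, a difference of 2.04 ± 0.42 (SE, adjusted p = 0.0353). cel.1, which encodes an enzyme that splits cholesterol and other lipid esters, scored 2.60, 2.71 and 3.08 at 6 dpf, against 1.27, -0.28 and 2.15 at 4 dpf, 1.76 ± 0.39 higher (adjusted p = 0.0444). All 3 later arrays lay above all 3 earlier ones for both genes, and the second 4 dpf array was the lowest by a wide margin.

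Protein digestion gave the other 4 calls. cela1.5, an elastase gene, scored 2.20, 2.29 and 2.61 at 6 dpf, against 0.49, -0.58 and 1.32 at 4 dpf, with a difference of 1.96 ± 0.34 and the smallest adjusted p of the list (0.0141). cpa1, which encodes a carboxypeptidase that trims amino acids from the end of a chain, scored 1.65, 1.87 and 2.60 at 6 dpf, against -0.26, -0.67 and 1.15 at 4 dpf (1.96 ± 0.43, adjusted p = 0.0444). c6ast3, which encodes a metalloprotease of the astacin family, scored 1.64, 1.70 and 2.29 at 6 dpf, against -0.08, -0.75 and 0.94 at 4 dpf (1.84 ± 0.40, adjusted p = 0.0437). For these 3 genes the second 4 dpf array lay below the array's middle and the first no higher than 0.49, while every 6 dpf array was at 1.64 or above. cpa4, a second carboxypeptidase gene, scored 2.87, 2.74 and 3.26 at 6 dpf, against 1.40, 0.17 and 2.38 at 4 dpf, 1.64 ± 0.37 higher (adjusted p = 0.0496), and its second probe set differed by 1.58 with an adjusted p of 0.0884.

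The other 16 genes of the list did not pass the threshold, with differences of 0.05 to 1.68 and adjusted p-values of at least 0.0778. They include several zymogens. prss1, which encodes trypsin, the protease that activates the others, scored 4.05, 3.83 and 4.07 at 6 dpf, against 3.52, 2.06 and 3.85 at 4 dpf, with overlapping ages (0.84 ± 0.30, adjusted p = 0.297). The elastase gene ela3l scored 3.77, 3.60 and 3.92 at 6 dpf, against 2.83, 1.06 and 3.27 at 4 dpf, with no overlap (1.37 ± 0.34, adjusted p = 0.0778). The chymotrypsin genes ctrb.1, ctrb.2 and ctrl differed by 1.19, 1.37 and 1.43 (adjusted p = 0.116, 0.18 and 0.145), again without overlap. pla2g1b, which encodes the pancreatic phospholipase, differed by 1.68 ± 0.47 (adjusted p = 0.136). pdia2, which encodes a pancreatic disulfide isomerase that folds these enzymes, differed by 1.01 ± 0.34 (adjusted p = 0.256). ptf1a, which encodes a transcription factor of acinar cells, scored -0.53, -0.64 and -0.48 at 6 dpf, against -0.59, -0.62 and -0.58 at 4 dpf, below the array's middle throughout, and had the smallest difference of the list (0.05).

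**Figure D2:**
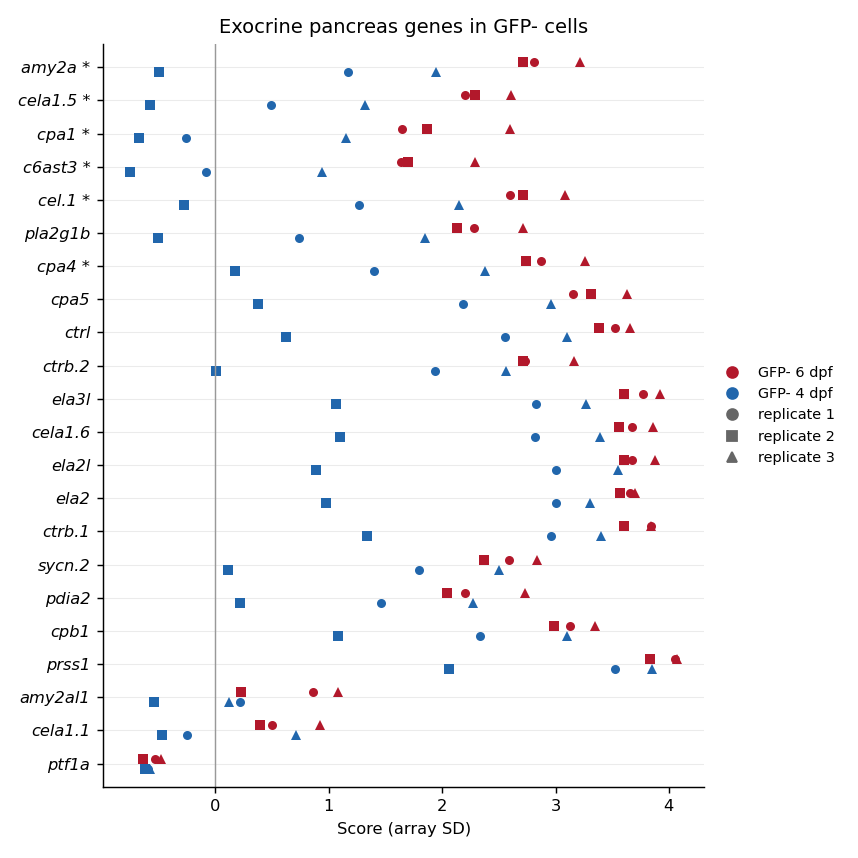
Score (array SD) of each of the 22 measured exocrine pancreas genes on the 3 GFP- 6 dpf arrays (red) and the 3 GFP- 4 dpf arrays (blue), with the replicate number as the symbol; an asterisk marks the 6 genes past the threshold. The second 4 dpf array is the lowest of its group for 22 of 22 genes, and the third is the highest for 21.

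The earlier age was uneven for these genes. The median SD within the group was 0.24 at 6 dpf and 1.14 at 4 dpf for the exocrine list, against 0.10 and 0.15 for all genes. In the fit each gene has 1 spread shared by all 8 groups. The SE and p-values of the exocrine genes therefore understate the spread at 4 dpf. Per array, the median score of the list was 2.77, 2.71 and 3.19 at 6 dpf, against 1.63, 0.14 and 2.44 at 4 dpf. The second array was lowest at 4 dpf for 22 of 22 genes in GFP- cells and also for 22 of 22 in GFP+ cells. The third GFP- array at 4 dpf, on which the unnamed control probe set scored 0.37, was highest for 21 of 22, and its list median of 2.44 stayed below every 6 dpf array. Whether GFP+ cells in the GFP- gate had a part in the result was not tested.

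The number of exocrine genes past the threshold rests on single arrays. It was 0 without the first or the third 6 dpf array, 1 without the second, 3 without the first 4 dpf array, 1 without the second and 17 without the third. With the block by gate and replicate number it was 3 on all 24 arrays (amy2a, cela1.5 and c6ast3 with adjusted p = 0.049, 0.0187 and 0.0434). With the block by number on the 12 GFP- arrays it was 0, and the 6 genes had adjusted p-values between 0.0997 and 0.203.

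Set against 3 dpf, an age with its own 3 arrays, the exocrine genes stood higher by a median of 2.88 at 6 dpf and by 1.30 at 4 dpf. Over the whole array 801 probe sets were called between 6 and 3 dpf (5.17%). At 6 dpf 20 of 22 were called higher than at 3 dpf, against 3.04% of all genes, and at 4 dpf 11 of 22, against 1.93% of all genes. These comparisons share arrays with the one between 6 and 4 dpf and are no independent evidence for it. In GFP- cells amy2a averaged -0.42 ± 0.15 (2 dpf), -0.34 ± 0.22 (3 dpf), 0.87 ± 1.25 (4 dpf) and 2.91 ± 0.27 (6 dpf, SD, n = 3 each). In GFP+ cells the list had a median difference of 0.68 between 6 and 4 dpf, and 3 of its genes, cela1.5, cpa1 and c6ast3, were called higher (adjusted p = 0.0121, 0.0344 and 0.0142), against 1.93% of all genes. The change in GFP- cells minus that in GFP+ cells was 0.77 for amy2a (adjusted p = 0.818), 0.41 for cela1.5 (0.881) and 0.07 for c6ast3 (0.981), which does not show that the gates changed alike.

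**Figure D3:**
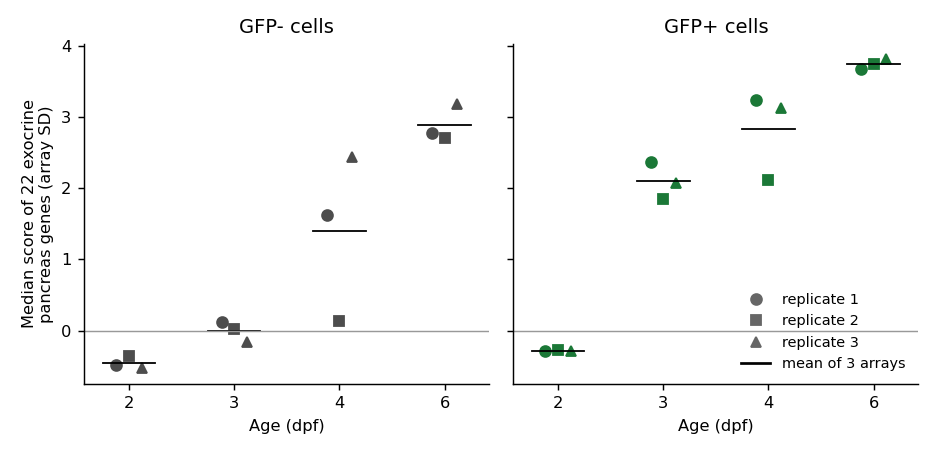
Median score (array SD) of 22 exocrine pancreas genes on each array at 2, 3, 4 and 6 dpf, in GFP- cells (left) and GFP+ cells (right), with the replicate number as the symbol and a bar at the mean of 3 arrays. In GFP- cells the 3 arrays at 4 dpf spread between 0.14 and 2.44 and all lie below the 3 arrays at 6 dpf.

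The other digestive lists did not move in this way between 6 and 4 dpf. None of 53 liver genes was called (median difference 0.03, with 2 higher and 2 lower at an unadjusted p of 0.05, against 5.35% and 4.7% of all genes). apoa2, which encodes an apolipoprotein, scored 3.53, 3.61 and 3.76 at 6 dpf, against 3.83, 3.18 and 4.04 at 4 dpf, and tfa, which encodes transferrin, scored 2.74, 3.03 and 3.28, against 3.16, 2.61 and 3.54. The ages overlapped for both, and the third 4 dpf array was again the highest of its age: the median of the liver list was 0.87, 1.05 and 1.12 at 6 dpf, against 0.62, 0.56 and 2.07 at 4 dpf. Relative to 3 dpf, 22 of the 53 liver genes were called higher at 6 dpf, against 3.04% of all genes, and 17 at 4 dpf, against 1.93%. None of 36 intestinal genes was called (median 0.03, with 3 higher and 2 lower unadjusted), and chia.2, a chitinase gene, had the largest difference among them (0.98 ± 0.33, adjusted p = 0.25). The array medians of the intestinal list were 0.58, 0.92 and 0.55 at 6 dpf, against -0.10, 1.18 and 0.80 at 4 dpf. Here the second 4 dpf array was the highest of its age, as it was in GFP+ cells (0.90, 1.73 and 1.14). List members below the threshold that are named here were chosen after their values were seen, unless they were among the 2 brightest of their list or markers.

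Hormone genes gave 1 call, among 15 measured pituitary and neuroendocrine genes, against 0.364% of all genes called higher. gh1, which encodes growth hormone of the pituitary, scored 1.74, 2.07 and 2.13 at 6 dpf, against 1.16, 1.18 and 1.01 at 4 dpf, a rise of 0.86 ± 0.13 (adjusted p = 0.00332). The arrays of the ages lay far apart, and those of each age close together. Its mean in GFP- cells was -0.53 ± 0.08 (2 dpf), 0.32 ± 0.29 (3 dpf), 1.12 ± 0.09 (4 dpf) and 1.98 ± 0.21 (6 dpf, SD, n = 3 each), whereas in GFP+ cells it was -0.44 at 6 dpf and -0.41 at 4 dpf. The call held with the block by gate and replicate number on all 24 arrays (adjusted p = 0.0104). It was lost with the block by number on the 12 GFP- arrays (adjusted p = 0.108).

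The other 14 measured pituitary and neuroendocrine hormone genes did not pass, and the median of the list was -0.01. pomca, which encodes the precursor of corticotropin and melanocyte-stimulating hormone, scored 0.53, -0.27 and 0.29 at 6 dpf, against -0.43, -0.61 and -0.21 at 4 dpf (0.60 ± 0.15, adjusted p = 0.0847). Of 15 endocrine pancreas and gut hormone genes none was called, 11 differences were positive, against 44.5% of all genes, and 5 were higher at an unadjusted p of 0.05, against 5.35% of all genes (median 0.26). ins, which encodes insulin, scored 1.76, 2.08 and 1.86 at 6 dpf, against 0.69, 1.63 and 0.75 at 4 dpf (0.88 ± 0.33, adjusted p = 0.346). gcga, which encodes glucagon, scored 2.34, 2.38 and 2.84, against 1.58, 2.24 and 1.95 (0.60 ± 0.24, adjusted p = 0.384). Neither gene had overlapping ages.

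The 15 largest increases among named genes held 8 others. ucp1, whose mammalian form is a carrier that lets protons back into the mitochondrial matrix, scored 2.82, 2.64 and 2.64 at 6 dpf, against 1.47, 1.31 and 2.13 at 4 dpf (1.06 ± 0.22, adjusted p = 0.0353), and averaged -0.02 at 3 dpf. Its call was lost when any single array other than the third 4 dpf array was left out. cuzd1.1, whose mammalian relative is a membrane protein of zymogen granules, scored 0.02, 0.75 and 1.13 at 6 dpf, against -0.54, -0.65 and -0.53 at 4 dpf (1.20 ± 0.24, adjusted p = 0.0321). The 4 dpf arrays of cuzd1.1 were at the low end of the scale, where those of 2 and 3 dpf also lay (means of -0.66 and -0.65), while the 6 dpf arrays were spread out.

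Among the rest, iscub, which encodes a scaffold for iron-sulfur clusters, scored 2.33, 2.00 and 1.93 at 6 dpf, against 1.50, 0.80 and 1.21 at 4 dpf (0.92 ± 0.16, adjusted p = 0.0162). ankha, whose mammalian relative is a membrane protein that controls pyrophosphate outside the cell, scored 0.98, 0.51 and 0.90, against -0.21, -0.39 and 0.15 (0.94 ± 0.15, adjusted p = 0.00866). hcn2b, which encodes a pacemaker ion channel, rose by 0.89 ± 0.18 (adjusted p = 0.0353). nr0b2a, which encodes a nuclear receptor that in mammals curbs bile acid synthesis, rose on both of its probe sets, by 0.83 and by 0.54 (adjusted p = 0.0277 and 0.0433). scinla, which encodes a protein related to the actin-severing gelsolins, rose by 0.75 ± 0.13 (adjusted p = 0.0157). btbd6b rose by 0.75 ± 0.12 on the brighter of its probe sets (adjusted p = 0.00866), while the other differed by 0.06. In each of these 6 genes all 6 dpf arrays were above all 4 dpf arrays, as the rule by which they were picked required.

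With the block by gate and replicate number on all 24 arrays, ankha, iscub, scinla and btbd6b kept their calls (adjusted p = 0.017, 0.0389, 0.0317 and 0.0187), and ucp1, cuzd1.1, hcn2b and nr0b2a lost theirs (0.0568, 0.0598, 0.0672 and 0.0676). znf395a, a zinc finger gene chosen after its values were seen, scored 1.80, 1.82 and 1.96 at 6 dpf, against 1.07, 1.30 and 1.04 at 4 dpf (0.72 ± 0.14, adjusted p = 0.0228). It kept its call with the block on 24 and on 12 arrays (0.0388 and 0.0473). gtpbp4, which encodes a GTP-binding protein of ribosome assembly, scored 1.99, 2.07 and 1.96 at 6 dpf, against 1.18, 1.28 and 1.36 at 4 dpf (0.73 ± 0.14, adjusted p = 0.0253), and was also picked out after its values were seen. It lost its call with the block on 24 arrays (0.0533) and kept it on 12 (0.0473). Over the ages znf395a averaged 1.68 (2 dpf), 1.45 (3 dpf), 1.14 (4 dpf) and 1.86 (6 dpf), and gtpbp4 averaged 1.78, 1.53, 1.27 and 2.01, with the lowest mean of each at 4 dpf.

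**Figure D4:**
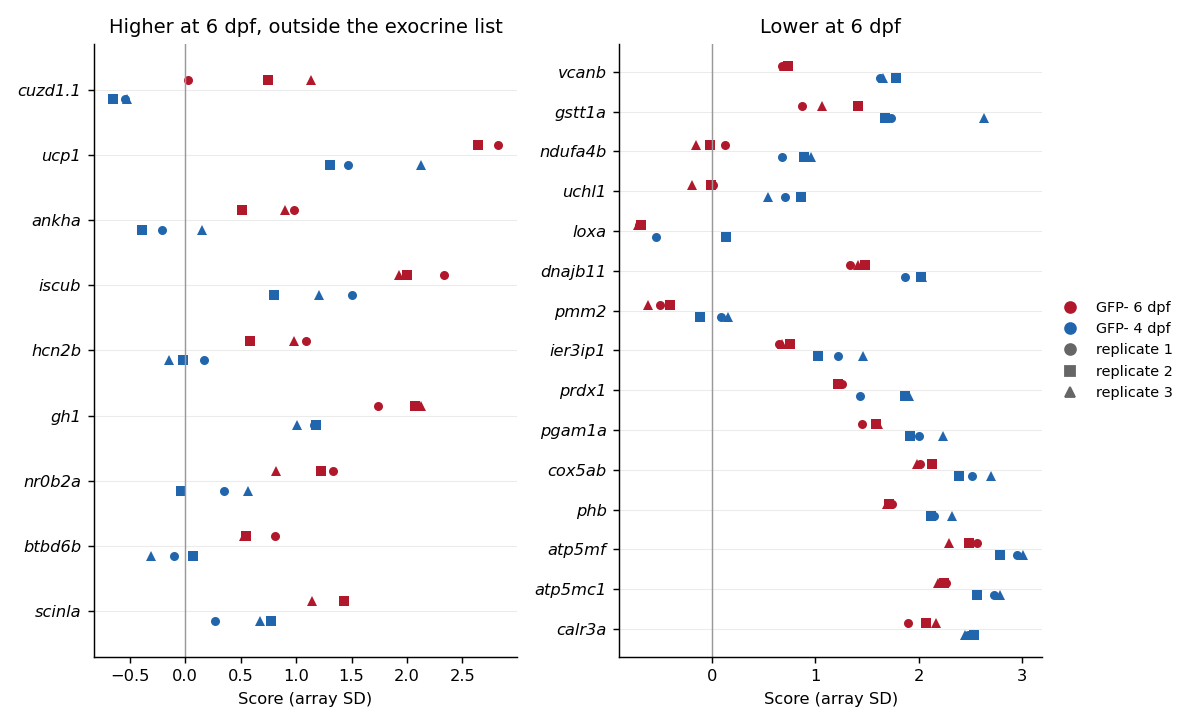
Score (array SD) of the named genes past the threshold on the 3 GFP- 6 dpf arrays (red) and the 3 GFP- 4 dpf arrays (blue), for 9 higher genes outside the exocrine list (left) and 15 lower genes (right), with the replicate number as the symbol. Only genes whose ages do not overlap were taken for this figure, and the lower genes differ by 0.45 to 0.98.

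The largest single decrease lay in the extracellular matrix. Of 38 measured genes of fibroblasts and fin fold matrix, 2 were called lower and none higher, against 0.227% of all genes called lower, and 34 of 38 differences were negative, against 55.5% of all genes. On 16 (42.1%) the arrays did not overlap in this direction, against 7.76% of all genes, and the median was -0.26. The count of 2 became 1 without the first or the third 6 dpf array or without the second or the third 4 dpf array. vcanb scored 0.68, 0.74 and 0.70 at 6 dpf, against 1.63, 1.78 and 1.66 at 4 dpf, and fell by 0.98 ± 0.12 (adjusted p = 0.000617). It was the most stable call of the 30 genes with the largest changes, past the threshold in 15 of 16 other settings, with adjusted p-values of 0.00141 and 0.0344 with the block on 24 and on 12 arrays. Its mean in GFP- cells was 1.96 (2 dpf), 1.76 (3 dpf), 1.69 (4 dpf) and 0.71 (6 dpf), and in GFP+ cells it was -0.16 at 6 dpf and 0.16 at 4 dpf.

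loxa, which encodes a lysyl oxidase that cross-links collagen and elastin, scored -0.70, -0.69 and -0.71 at 6 dpf, against -0.54, 0.14 and 0.14 at 4 dpf (-0.62 ± 0.13, adjusted p = 0.0353). The first 4 dpf array was much lower than the other two, all 6 dpf arrays were at the low end of the scale, and the call was lost with the block (adjusted p = 0.0667 on 24 arrays). Genes for collagens and their processing had differences of the same sign but did not pass. col1a1a, a fibrillar collagen gene, scored 2.57, 2.83 and 3.09 at 6 dpf, against 3.47, 3.31 and 3.25 at 4 dpf (-0.51 ± 0.16, adjusted p = 0.207). postnb, which encodes the matrix protein periostin, scored 1.09, 1.57 and 1.42, against 2.22, 2.01 and 2.02 (-0.72 ± 0.19, adjusted p = 0.0935). Both sets of arrays were apart, as they were for and2, an actinodin gene of the fin fold fibres (-0.64 ± 0.22, adjusted p = 0.288), p4ha1b, a prolyl hydroxylase gene (-0.63 ± 0.17, adjusted p = 0.12), and plod1a, a lysyl hydroxylase gene (-0.44 ± 0.12, adjusted p = 0.14).

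Relative to 3 dpf, 14 of the 38 matrix genes were called lower at 6 dpf, against 2.91% of all genes, and 3 at 4 dpf, against 2.65% of all genes. In GFP+ cells 2 were lower at 6 than at 4 dpf, against 3.99% of all genes, and the median was -0.01. Cartilage and bone genes, some of which also stand in the matrix list, had no call among 28 (median -0.09). At an unadjusted p of 0.05, 3 were lower, against 4.7% of all genes, and 7 (25.0%) were lower without overlap, against 7.76%. Set against 3 dpf, 6 of the 28 were called lower at 6 dpf, against 2.91% of all genes, and none at 4 dpf.

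Of 78 measured genes of the respiratory chain and ATP synthase, 4 were called lower and none higher, against 0.227% of all genes called lower. 69 of the 78 differences were negative, against 55.5% of all genes, and the median was -0.23. On 27 (34.6%) all 6 dpf arrays lay below all 4 dpf arrays, against 7.76% of all genes, and 30 were lower at an unadjusted p of 0.05, against 4.7%. The count of 4 became 0 without the first or the third 6 dpf array or without the third 4 dpf array, 2 without the second 6 dpf array and 9 without the second 4 dpf array. ndufa4b, which encodes a subunit found with cytochrome c oxidase, scored 0.13, -0.02 and -0.15 at 6 dpf, against 0.68, 0.89 and 0.96 at 4 dpf (-0.86 ± 0.16, adjusted p = 0.0248). cox5ab, which encodes another subunit of that enzyme, scored 2.01, 2.13 and 1.98, against 2.52, 2.39 and 2.70 (-0.50 ± 0.10, adjusted p = 0.0251). The gap between the ages was wide for ndufa4b and narrower, relative to the spread at 4 dpf, for cox5ab.

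The other calls of the list were ATP synthase genes. atp5mc1, which encodes the c subunit of its rotating ring, scored 2.27, 2.25 and 2.19 at 6 dpf, against 2.73, 2.57 and 2.79 at 4 dpf (-0.46 ± 0.08, adjusted p = 0.0207). atp5mf, which encodes a small membrane subunit, scored 2.57, 2.49 and 2.29, against 2.95, 2.79 and 3.01 (-0.47 ± 0.10, adjusted p = 0.0444). For 3 of these genes, cox5ab, atp5mc1 and atp5mf, the second array was the lowest at 4 dpf. Subunits that fell short of the threshold included ndufb8 of complex I (-0.51 ± 0.13, adjusted p = 0.0968), uqcrh of complex III (-0.40 ± 0.11, adjusted p = 0.108) and cox6b1, a further one of cytochrome c oxidase (complex IV, -0.68 ± 0.15, adjusted p = 0.0524). phb, which encodes prohibitin of the inner mitochondrial membrane and is in no list, scored 1.74, 1.71 and 1.69 at 6 dpf, against 2.15, 2.12 and 2.32 at 4 dpf (-0.49 ± 0.08, adjusted p = 0.0052).

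The respiratory genes did not run downward over all ages. Relative to 3 dpf, 3 of 78 were called lower at 6 dpf and none higher, against 2.91% of all genes called lower, while 4 were called higher and none lower at 4 dpf, against 1.93% of all genes called higher, with medians of -0.13 and 0.06. In GFP+ cells 6 were called lower and 1 higher at 6 than at 4 dpf (median -0.20), against 3.99% and 1.93% of all genes, and ndufa4b fell there by 1.88 (adjusted p = 1.81e-06). With the block on 24 arrays, atp5mc1 and cox5ab kept their calls and ndufa4b (adjusted p = 0.0598) and atp5mf (adjusted p = 0.0681) lost theirs.

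Of 77 genes of the secretory pathway through the endoplasmic reticulum (ER), 2 were called lower and none higher, against 0.227% of all genes called lower. The median was -0.14, and 18 (23.4%) were lower without overlap, against 7.76% of all genes. The count of 2 became 0 without the first or the third 6 dpf array or without the third 4 dpf array, and 1 without the second 4 dpf array. dnajb11, which encodes a co-chaperone of the ER chaperone BiP, scored 1.34, 1.48 and 1.41 at 6 dpf, against 1.87, 2.02 and 2.03 at 4 dpf (-0.56 ± 0.10, adjusted p = 0.0207). calr3a, which encodes a calreticulin that binds newly made glycoproteins, scored 1.90, 2.07 and 2.17, against 2.48, 2.54 and 2.45 (-0.45 ± 0.09, adjusted p = 0.0353). hspa5, which encodes BiP itself, scored 2.28, 2.12 and 2.15, against 2.50, 2.55 and 2.58 (-0.36 ± 0.15, adjusted p = 0.391). The arrays of the ages were apart in all 3 genes. Outside the list, pmm2, which makes mannose phosphate for protein glycosylation (-0.55 ± 0.12, adjusted p = 0.0496), and ier3ip1, which encodes a small ER protein (-0.54 ± 0.12, adjusted p = 0.0437), also fell. dnajb11 kept its call with the block on 24 arrays (adjusted p = 0.0298), and calr3a, pmm2 and ier3ip1 did not (0.054, 0.102 and 0.0647).

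The proteasome list and the spliceosome and RNA-binding list held no gene past the threshold. Of 45 proteasome genes 15 (33.3%) had lower, non-overlapping arrays at 6 dpf, against 7.76% of all genes, and 10 were lower at an unadjusted p of 0.05, against 4.7% of all genes, with a median of -0.13. psmb6, a catalytic subunit gene, scored 1.59, 1.53 and 1.24 at 6 dpf, against 2.12, 1.79 and 2.31 at 4 dpf (-0.62 ± 0.18, adjusted p = 0.184). Relative to 3 dpf, 14 of the 45 were called lower at 6 dpf, against 2.91% of all genes, and 1 at 4 dpf, against 2.65%. In GFP+ cells 13 were called lower at 6 than at 4 dpf, against 3.99% of all genes. Of 86 spliceosome and RNA-binding genes 16 (18.6%) were lower without overlap, against the same 7.76%, and 12 were lower and 3 higher at an unadjusted p of 0.05, against 4.7% and 5.35% of all genes. Their median was -0.13, and in GFP+ cells 18 were called lower, against 3.99% of all genes. The 70 ribosomal protein genes had list medians of 3.59, 3.55 and 3.50 at 6 dpf, against 3.64, 3.52 and 3.56 at 4 dpf, and none was called (1 higher and 1 lower unadjusted).

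Of 42 antioxidant and detoxifying genes 2 were called lower, against 0.227% of all genes, with a list median of -0.10. The count became 0 without the first or the third 6 dpf array or without the third 4 dpf array, and 1 without the second 6 dpf array. gstt1a, a glutathione S-transferase gene, scored 0.87, 1.41 and 1.07 at 6 dpf, against 1.73, 1.68 and 2.63 at 4 dpf (-0.90 ± 0.19, adjusted p = 0.0437). prdx1, which encodes a peroxiredoxin that removes hydrogen peroxide, scored 1.26, 1.22 and 1.22, against 1.43, 1.87 and 1.91 (-0.51 ± 0.10, adjusted p = 0.0277), and its other probe sets differed by -0.42 and -0.39 without passing. The ages were apart in both genes, with 1 of the 4 dpf arrays standing off from the other two, the third for gstt1a and the first for prdx1. pgam1a, a glycolytic enzyme gene, was the only one of 34 glycolysis genes called, against 0.591% of all genes called in either direction (-0.50 ± 0.11, adjusted p = 0.0391), and it lost the call with the block on 24 arrays (adjusted p = 0.0515), without any 1 of the 6 dpf arrays and without the third 4 dpf array. uchl1, which encodes a deubiquitinating enzyme abundant in neurons, scored 0.01, -0.01 and -0.19 at 6 dpf, against 0.71, 0.86 and 0.54 at 4 dpf (-0.77 ± 0.16, adjusted p = 0.0353, or 0.0779 with the block on 24 arrays).

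The lists of neural, retinal, muscle, skin, blood and vessel genes held no gene past the threshold between 6 and 4 dpf in limma at an adjusted p of 0.05. At an unadjusted p of 0.05, 5.35% of all genes were higher and 4.7% lower. Among 28 genes of neurons and synapses, 4 were higher and none lower unadjusted, with 21 positive differences, against 44.5% of all genes, and a median of 0.18. The array medians of this list were 1.63, 1.52 and 1.68 at 6 dpf, against 1.60, 0.78 and 1.23 at 4 dpf. Relative to 3 dpf, 7 of the 28 were called lower and 1 higher at 6 dpf, against 2.91% and 3.04% of all genes. At 4 dpf 9 were called lower and 1 higher than at 3 dpf, against 2.65% and 1.93%. The medians relative to 3 dpf were -0.26 at 6 dpf and -0.46 at 4 dpf. Among 34 genes of neural progenitors 5 were higher unadjusted, led by neurod4, which encodes a neurogenic transcription factor and scored 0.67, 1.07 and 1.37 at 6 dpf, against 0.39, -0.18 and 0.51 at 4 dpf (0.79 ± 0.18, adjusted p = 0.0607). Of 34 photoreceptor genes 4 were higher unadjusted (median 0.06), among them rbp3, which encodes a retinoid-binding protein of the retina (0.75 ± 0.22, adjusted p = 0.157), and of 13 glial genes 2 were higher and 1 lower.

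The counts for the body wall, blood and vessels stand against the same 5.35% higher and 4.7% lower. At an unadjusted p of 0.05, none was higher and 2 were lower of 53 skeletal muscle genes, 1 was higher and 1 lower of 58 epidermal genes, 1 was higher and 1 lower of 20 ionocyte genes, none was higher and 2 were lower of 17 endothelial genes, and 3 were higher and 4 lower of 30 leukocyte genes. Among the 3 higher genes of the leukocyte list was cpa5 (1.52 ± 0.42), a carboxypeptidase gene that also served as an exocrine pancreas marker here. icn, which encodes ictacalcin, a small calcium-binding protein of the skin, averaged 3.67 ± 0.14 at 6 dpf and 3.81 ± 0.23 at 4 dpf (SD, n = 3 each). Of 24 erythroid genes 1 was lower unadjusted, and 22 differences were negative and 2 positive (median -0.12), against 55.5% negative over all genes. Of the endothelial differences 15 were negative and 2 positive (median -0.05). The array medians of both lists lay below 0 at both ages. hbae3, an embryonic globin gene, varied widely between replicates of an age, with -0.23, 1.33 and 0.30 at 6 dpf, against 3.11, 0.17 and 1.47 at 4 dpf. Of 42 lysosome genes 1 was lower. No gene of the lens, cardiac muscle, kidney, T cell or complement lists reached an unadjusted p of 0.05, and 1 pigment cell gene did.

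Cell division and daily rhythm also gave no call in GFP- cells. Of 53 DNA replication genes 1 was higher and 3 were lower unadjusted (median -0.11), and of 65 mitosis genes none was higher and 6 were lower (median -0.05), against 5.35% and 4.7% of all genes. In GFP+ cells 14 of the replication genes and 21 of the mitosis genes were called lower at 6 than at 4 dpf, against 3.99% of all genes. rpa3, which encodes a subunit of the single-strand DNA-binding complex, scored 1.44, 1.59 and 1.57 at 6 dpf, against 2.30, 1.69 and 2.39 at 4 dpf (-0.60 ± 0.15, adjusted p = 0.0869). Of 32 clock genes 5 were higher and none lower unadjusted, and bhlhe41, which encodes a repressor of the clock, scored 2.55, 2.49 and 2.33 at 6 dpf, against 2.06, 1.07 and 1.80 at 4 dpf (0.81 ± 0.22, adjusted p = 0.126). Of 55 heat shock and immediate early genes 6 were lower unadjusted (median -0.14), and 14 cholesterol synthesis genes had 3 lower. The array medians of the heat shock list were 1.29, 1.32 and 1.42 at 6 dpf, against 1.26, 1.90 and 1.40 at 4 dpf. Only the second 4 dpf array stood above the 6 dpf arrays. The 35 genes of fatty acid oxidation and fasting had ucp1 as their single call, against 0.364% of all genes called higher.

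GFP+ cells of the same ages give a measure of how far the changes were shared. Between 6 and 4 dpf, 712 probe sets were called in GFP+ cells (4.59%), 244 higher (1.57%) and 468 lower (3.02%). The difference between the gates in this change passed for 4 of 15502 probe sets (0.0258%), 2 in each direction (0.0129% each), and for 1181 at an unadjusted p of 0.05 (7.62%). 1 of the 4 lay among the calls in GFP- cells: a probe set without a gene symbol scored 1.58, 0.85 and 1.35 at 6 dpf, against 0.17, -0.38 and -0.27 at 4 dpf in GFP- cells (1.42 ± 0.14, adjusted p = 3.52e-05, the smallest of the comparison), and -0.31, -0.33 and -0.41, against -0.28, -0.32 and -0.21, in GFP+ cells (-0.08 ± 0.14). The change in GFP- cells exceeded that in GFP+ cells by 1.51 ± 0.20 (adjusted p = 0.00177).

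ppp1r7 encodes a regulatory subunit of protein phosphatase 1. It was the other one whose change in GFP- cells minus that in GFP+ cells was positive (0.95 ± 0.12, adjusted p = 0.00177). It scored 1.25, 1.06 and 1.20 at 6 dpf, against 0.85, 0.91 and 1.08 at 4 dpf in GFP- cells, and 0.44, 0.41 and 0.54, against 1.13, 1.32 and 1.1, in GFP+ cells. The ages overlapped in GFP- cells, where the gene differed by 0.23, and did not in GFP+ cells, where it fell by 0.72. ahsg1, a fetuin gene of the liver, and a gene with a clone symbol rose in GFP+ cells, by 1.85 and 1.19, and differed by 0.10 and 0.11 in GFP- cells. For gh1 the difference between the gates was 0.89 (adjusted p = 0.08), for btbd6b 0.85 (adjusted p = 0.0857) and for vcanb -0.66 (adjusted p = 0.26). The calls of these named genes in GFP- cells are therefore not shown to be particular to that gate.

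**Figure D5:**
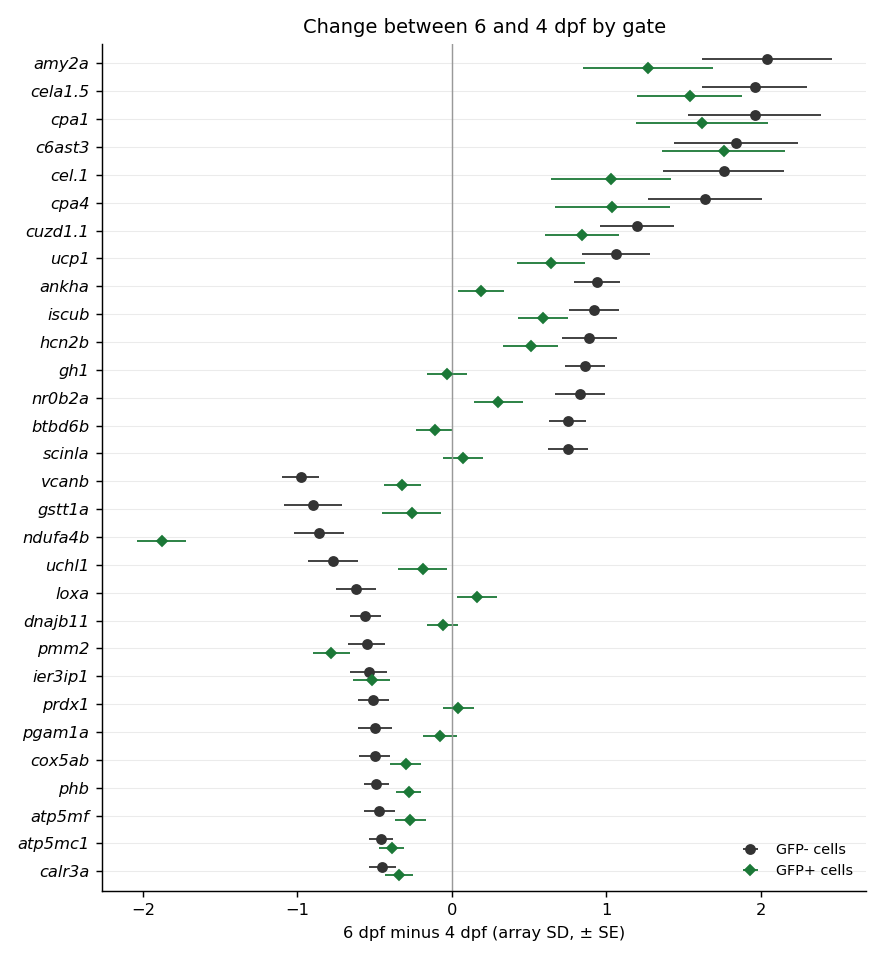
Difference in score between 6 and 4 dpf (array SD, ± SE) for the 15 largest increases and 15 largest decreases among genes past the threshold in GFP- cells, in GFP- cells (dark circles) and GFP+ cells (green diamonds). gh1 rose by 0.86 in GFP- cells and differed by -0.03 in GFP+ cells, whereas ndufa4b fell by 0.86 in GFP- cells and by 1.88 in GFP+ cells.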

How the data were processed

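Amplified cDNA from sorted cells was hybridized to 24 Affymetrix zebrafish arrays. The deposited values are 1 score per probe set, made with RMA per the submitters' processing notes, which give no version. RMA gives log values, but each deposited array has a median of 0 and an SD of 1, and neither the log base nor the step that scaled the arrays is given in the sources used here, so no fold change is printed. Depth does not apply to arrays, and their number limits the precision.

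All 24 arrays were fitted together by group with limma 3.58.1 in R 4.3.3, and p-values were adjusted by Benjamini-Hochberg over 15502 probe sets at a threshold of 0.05. Differences are later minus earlier age, with 16 residual degrees of freedom and 3.6 prior ones. An exact permutation of 3 against 3 arrays cannot go below p = 0.1 and was not used. Gene symbols came from the platform annotation: 10795 probe sets had 1 symbol, 135 several and 4572 none, and each of 8793 genes is represented by its probe set with the highest mean score. The rule for names took the 15 largest called, non-overlapping differences each way, leaving out clone symbols, the 6 largest each way in the difference between gates, up to 5 called and the 2 highest-scoring uncalled members of each list, and the marker genes. Other genes were chosen after their values were seen. The comparison, the markers and the gene lists were chosen with earlier results of these data known.

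The labels give replicate numbers 1 to 3 in each group but do not say what they mark. Deviations from the group means of GFP- arrays with the same number at 6 and 4 dpf correlated at 0.225, 0.105 and 0.137 over probe sets. Those with different numbers correlated between -0.178 and 0.058, so the numbers were taken to pair the samples. Deviations within a group sum to 0, so these values are not independent of each other. GFP- and GFP+ arrays of the same number correlated at 0.081, 0.312 and 0.30 at 4 dpf, and at 0.056, -0.079 and -0.069 at 6 dpf. The main fit has no block, so its SE and p-values leave the pairing out. The block by number was fitted on the 12 GFP- arrays and, as an alternative added after seeing the data, by gate and number on 24. Other alternatives were quantile normalization, fewer arrays, array weights, a trended robust prior, filters on score and size, and each array left out. In data simulated for this comparison over 15502 probe sets, the fit recovered 10% of differences of 0.25 array SD, 48% of 0.5, 94% of 1 and 96% of 1.5 (50 each), with 2 false calls. The simulated noise was independent between probe sets and had the same spread in every group. The exocrine genes were more uneven at 4 dpf and shifted together by array, so these rates do not apply to them. No sequence is printed because the files used here hold none.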

Additional observations from a re-analysis of the deposited data

Results flagged for a closer look

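4 differences between the gates in the change between 6 and 4 dpf passed limma's test of that difference. The change in GFP- cells minus that in GFP+ cells was -1.75 ± 0.26 for ahsg1 (adjusted p = 0.00815), a fetuin gene of the liver. ahsg1 scored -0.66, -0.52 and -0.30 at 6 dpf, against -0.64, -0.66 and -0.47 at 4 dpf in GFP- cells, and 1.75, 1.76 and 1.96, against -0.39, -0.41 and 0.71, in GFP+ cells. It was -1.08 ± 0.16 for si:ch211-240l19.8 (adjusted p = 0.00574), which scored -0.34, -0.43 and -0.33 at 6 dpf, against -0.55, -0.51 and -0.37 at 4 dpf in GFP- cells and rose by 1.19 in GFP+ cells. It was 0.95 for ppp1r7 and 1.51 for a probe set without a gene symbol, which rose in GFP- cells and differed by -0.08 in GFP+ cells.

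A control probe set outside the comparison stood out on 1 of the GFP- arrays. It scored 0.37 on the third GFP- array at 4 dpf, above the -0.68 to -0.48 of the other 11 GFP- arrays and below the 1.44 to 2.20 of the GFP+ arrays. The array annotation used here does not name it, and it was singled out after its values were seen.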

How the results depend on the processing

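The 30 named genes that passed by the rule for names kept their direction under all alternatives run. That rule took only genes whose ages do not overlap, so leaving out arrays could not turn a difference. The blocks by number left the differences themselves unchanged, so the kept direction is no separate support. The 77 calls (56 higher and 21 lower) became 72 (53 and 19) after quantile normalization, 65 (48 and 17) with a trended robust prior, 191 (113 and 78) with array weights and 35 (25 and 10) among probe sets with a mean score of at least 0. On the 12 GFP- arrays alone they were 12 (9 and 3). On the 6 arrays alone limma called 0 (0 higher and 0 lower), with a smallest adjusted p of 0.0909 and 1435 probe sets at an unadjusted p of 0.05. With a size of at least 1 array SD 12 passed, all higher (12 and 0). Leaving out each array gave 12 to 117 calls (8 to 73 higher, 2 to 44 lower). Without arrays 1 and 3 at 4 dpf, an alternative chosen after seeing the data, which leaves 1 array there whose spread is assumed to be like that of the other groups, 325 were called (219 and 106).

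With the replicate numbers taken as pairs, the block gave 7 calls on the 12 GFP- arrays (6 and 1) and 44 by gate and number on 24 arrays (34 and 10), of which 40 were among the 77. A different random block, which tied GFP- to GFP+ arrays of the same age and number, gave 76 (56 and 20). Of the 22 exocrine genes, 6 of them called, 0 were called with the block by number on 12 arrays and 3 on 24, 0 on the 6 or 12 arrays without a block, 0 to 17 with each array left out and 19 without arrays 1 and 3 at 4 dpf.

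The 4 calls for the change in GFP- minus GFP+ cells became 7 by quantile normalization, 7 with the trended prior, 7 with the block by gate and number, 51 with array weights, 1 with the filter on score, 6 to 22 with each array left out and 161 without arrays 1 and 3 at 4 dpf. The 801 calls of 6 against 3 dpf became 3612 with array weights, 192 at 1 array SD and 408 to 613 with each of the 3 arrays at 6 dpf left out. The cause of these shifts was not tested, beyond the fewer arrays or probe sets that some settings hold. Signal over background could not be assessed, because the deposited scores keep no background.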
